A study of Mus musculus with 12 samples.

Results

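The genes described here are a set of 39 mouse genes. They are type I interferon stimulated genes and, counted among the 39, the 2 chains of the receptor that switches these genes on. They were chosen by name, and each of the 39 symbols matched 1 row of a count table of 46603 genes. RNA was measured in ileum and in synovium dissected from the ankle, in 4 groups of 3 biological replicates: synovium of TNFdARE mice, synovium of WT littermates, ileum of TNFdARE mice and ileum of WT littermates. In TNFdARE mice a deletion in the germline removed the AU-rich element from the 3' end of the Tnf transcript, where it normally shortens the life of the mRNA and holds back its translation. Such mice are a known model of combined gut and joint inflammation, and no treatment is labelled. Age and sex are not stated, and the labels do not tie an ileum library to a synovium library of the same mouse. All 39 genes passed the filter on low counts in every comparison.

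Type I interferons are a family of cytokines, among them the interferon alphas and interferon beta, which bind a receptor built of the chains Ifnar1 and Ifnar2. Receptor binding activates Jak1 and Tyk2, and a complex that holds Stat2 and Irf9 then enters the nucleus and binds the interferon stimulated response element (ISRE) in front of antiviral genes. Many of these genes encode proteins that sense viral RNA or block its translation and copying, and the epithelium and immune cells of the gut are known to keep a low level of them on without infection.

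The start regions of 31 of the 39 genes were found in RefSeq (GRCm38.p6), as windows from 250 bases before to 50 bases after each annotated start. The core of the response element, searched as GAAANNGAAA on both strands with overlapping matches counted, stood in the windows of 15 of these 31 genes (48.4%), against 3.99% of 27025 genes with a window. The other interferon element, GAS, searched as TTCNNNGAA, which reads the same on both strands, stood in 8 of 31 (25.8%), against 9.55% of all genes. The stretches printed below are those in front of Isg15, Ifit1, Ifit3, Rsad2 and Oas1a, because these genes recur in the comparisons that follow. Capitals mark the matches to the response element core, and 15 bases are shown on each side.
Isg15, chr4:156200860-156200911, minus strand: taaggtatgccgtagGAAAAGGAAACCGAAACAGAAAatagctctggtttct
Ifit1, chr19:34640770-34640828, plus strand: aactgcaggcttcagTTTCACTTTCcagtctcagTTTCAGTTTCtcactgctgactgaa
Ifit3, chr19:34583358-34583431, plus strand: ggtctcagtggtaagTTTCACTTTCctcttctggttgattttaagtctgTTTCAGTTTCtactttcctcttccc
Rsad2, chr12:26456548-26456587, minus strand: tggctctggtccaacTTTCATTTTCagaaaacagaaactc
Oas1a, chr5:120907515-120907560, minus strand: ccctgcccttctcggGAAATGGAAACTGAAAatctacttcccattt
In Isg15 3 overlapping matches formed 1 run that began 78 bases before the start. Ifit1 had 2 matches, the first 104 bases before the start, and Rsad2 had 1, 120 bases before it. The stretch of Ifit3b at chr19:34607754-34607827 was letter for letter that of Ifit3, and the stretch of Oas1g at chr5:120887601-120887646 that of Oas1a. These identical letters go with transcripts that are alike too: 31.7% of the 100-base windows of Ifit3 and 40.9% of those of Oas1a occur in the other member of the pair (27.4% of Ifit3b and 31.3% of Oas1g). How the authors' counting shared such reads is not given in the sources used here, so the split within each pair is uncertain. The windows of Ifnar1 and Ifnar2 held the GAS letters and no match to the response element core.

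Several members lie side by side in the genome (GENCODE vM21, GRCm38). The 4 IFIT genes follow each other on the plus strand of chromosome 19, from the start of Ifit2 (chr19:34550694-34576419) to the end of Ifit1 (chr19:34640871-34650009). The 6 OAS genes are all on chromosome 5, with Oasl1 at chr5:114923240-114937915 and Oas1a at chr5:120896256-120907521. Chromosome 16 carries the receptor genes Ifnar2 (chr16:91372783-91405589) and Ifnar1 (chr16:91485238-91507441), and farther along Mx1 and Mx2 (chr16:97535308-97560900). Rsad2 (chr12:26442746-26456452, minus strand) and Cmpk2 (chr12:26469204-26479837, plus strand) are neighbours that point away from each other. The other genes called between the genotypes are Ddx58 (chr4:40203773-40239828), Usp18 (chr6:121245906-121270917), Samd9l (chr6:3372257-3399572) and Ifi27l2a (chr12:103442167-103443680).

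Library totals lay between 14267834 and 16224402 counts. Levels are given as CPM, which are library-scaled counts with TMM factors over the 12 libraries, and between genes as RPKM, which is CPM per kilobase of exon. The genotype labels were checked with Tnf itself, which had 38.4, 32.6 and 28.3 CPM in TNFdARE synovium, against 2.15, 2.02 and 1.89 CPM in WT synovium, and 82.8, 17.2 and 47.4 CPM in TNFdARE ileum, against 2.64, 1.39 and 1.62 CPM in WT ileum. Summed markers of intestinal epithelium reached 19.97 to 24.5 CPM in TNFdARE synovium and 9.90 to 13.2 CPM in WT synovium, against 9440 to 11581 CPM in TNFdARE ileum and 12469 to 13824 CPM in WT ileum, and Alpi, a brush border enzyme, was at 0 counts in every synovium library. In bulk tissue, fewer cells of a type and less RNA per cell cannot be told apart. The labels name the replicates biological replicates and do not say how the animals were housed or bred beyond littermates.

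One library of the ileum stood apart in these genes. All 39 members had their lowest value among the TNFdARE ileum libraries in replicate 2, where 39.4% of all genes tested had theirs. Among the WT ileum libraries, replicate 2 held the highest value of 35 of 39 members, against 32.4% of all genes. Relative to the mean of the WT libraries of the tissue, the median log2 level of the 39 members was 0.48, -0.69 and 0.38 in TNFdARE ileum replicates 1, 2 and 3, and -0.14, 0.52 and -0.36 in WT ileum. The lowest of these 6 medians thus belonged to a TNFdARE library and the highest to a WT library. In the synovium the same medians were -0.64, -0.26 and -0.02 in TNFdARE and -0.12, 0.06 and 0.01 in WT.

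**Figure D1:**
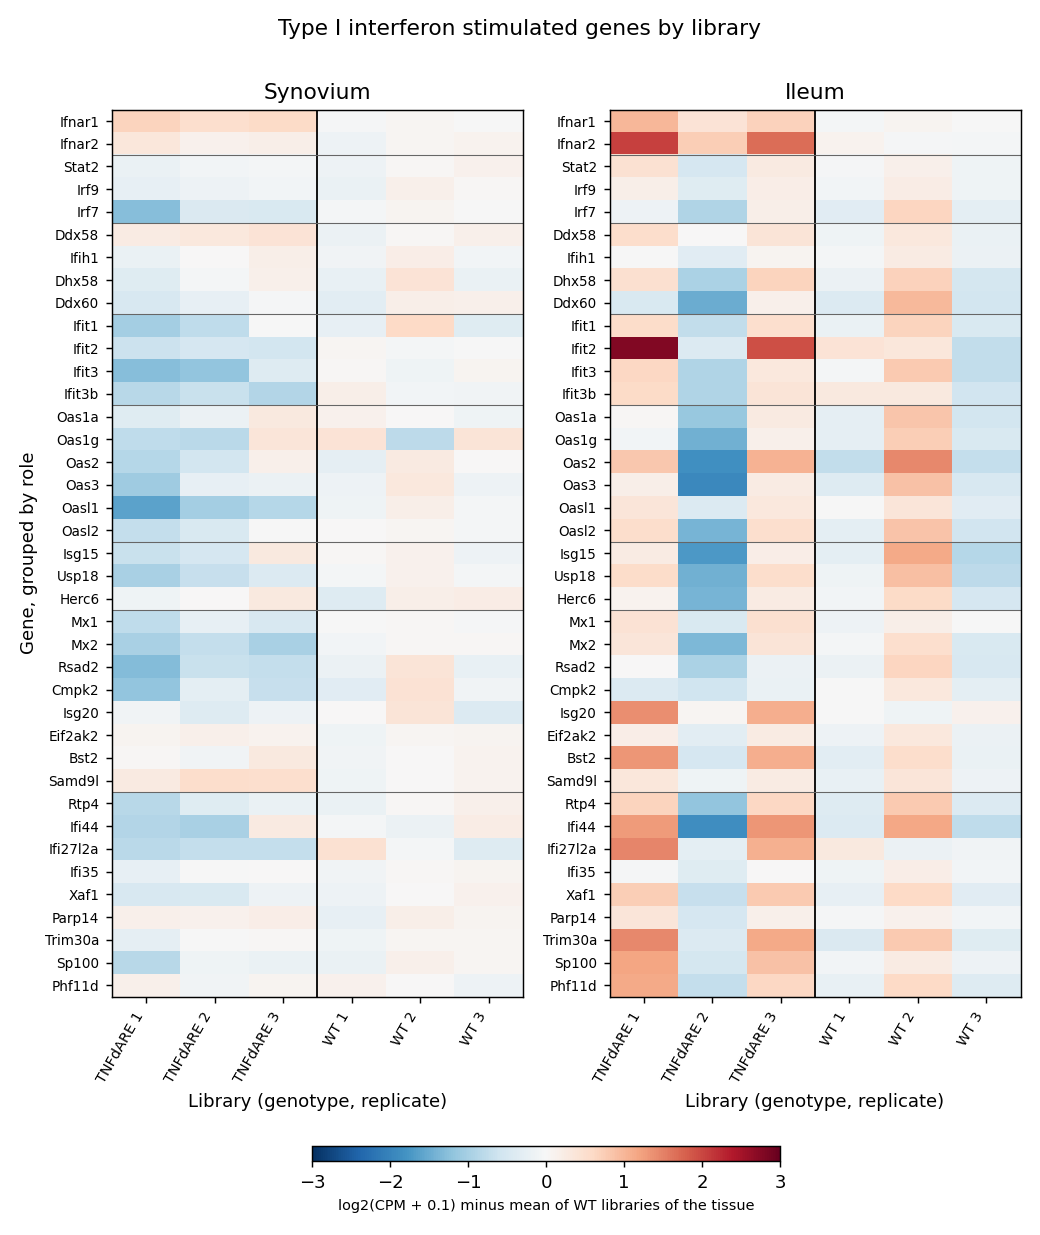
Heat map of the 39 genes (rows, grouped by role) in the 12 libraries (columns), as log2(CPM + 0.1) minus the mean of the 3 WT libraries of the same tissue (red higher, blue lower). The column of TNFdARE replicate 2 in the ileum is the lowest of its group in all 39 genes, and most synovium rows of the IFIT and OAS families are blue in the TNFdARE columns.

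The spread between replicates of 1 group was wide in the ileum. The highest replicate exceeded the lowest by a median of 2.91-fold over the members in TNFdARE ileum and 1.98-fold in WT ileum, while all genes in the same range of mean level had medians of 1.24-fold and 1.16-fold. In TNFdARE and WT synovium the medians over the members were 1.35-fold and 1.23-fold, close to the 1.21-fold and 1.22-fold of all genes. The standard error of a member's log2 fold change had a median of 0.44 in the ileum and 0.19 in the synovium. Replicate 2 of the TNFdARE ileum was also the lowest of its group in Tnf (17.2 CPM), in the summed macrophage markers (653.8 CPM, against 1580 and 1116 CPM in replicates 1 and 3) and in the summed neutrophil markers (75.03 CPM, against 437 and 242 CPM). Their part in the level of the interferon genes was not tested.

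In the synovium of TNFdARE mice, 8 of the 39 genes fell and 3 rose. The genes that fell were the antiviral effectors Ifit2, Ifit3, Ifit3b, Mx2 and Rsad2, the OAS-like gene Oasl1, the ISG15 protease Usp18 and Ifi27l2a. The genes that rose were the receptor chain Ifnar1, the RNA sensor Ddx58 and Samd9l. Over all 15599 genes tested, 10.7% fell and 13.1% rose at the same threshold, an adjusted p under 0.05, so that 8 of 39 falling was above the background share and 3 of 39 rising was below it. The excess of falling members did not hold in 4 of the 6 fits that left out a library, where 3 of 39 fell without TNFdARE replicate 1, 2 without TNFdARE replicate 2, 1 without WT replicate 2 and 2 without WT replicate 3, against 8.02%, 7.91%, 7.99% and 6.0% of all genes. Nor did it hold in a model of all 12 libraries, where 1 of 39 fell, against 11.4% of all genes. The median log2 fold change of the 39 members was -0.33, against 0.00 over all genes tested, and 29 of 39 values were negative. In 12 members every TNFdARE library lay below every WT library, which held for 23.2% of all genes, and in 5 members they all lay above, which held for 20.7% of all genes.

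In the ileum of TNFdARE mice, 2 of the 39 genes rose, Ifnar1 and Ifnar2, and 0 fell. Over the 15462 genes tested in the ileum 4.12% rose and 1.57% fell (7.88% and 1.04% with library size as the only scaling), so the share of members that rose was near that of all genes. The same 2 members were the ones whose TNFdARE values all exceeded the WT values, against 18.9% of all genes, and 0 members lay wholly below, against 18.4%. At an unadjusted p under 0.05, 3 members were higher and 0 lower, and DESeq2 also called 2 members, both higher, where it called 10.9% of all genes higher and 6.69% lower. limma-voom called 0 of the 15462 genes. The median log2 fold change was 0.10, against -0.00 over all genes. Without TNFdARE ileum replicate 2, 9 members rose, while 16.5% of all genes rose and 12.8% fell in that fit, and 0 members were called without any other ileum library, in fits where 0 to 213 genes rose in all. The 9 were Ifnar1 (0.87), Ifnar2 (1.89), Stat2 (0.38), Ifit2 (2.34), Mx1 (0.47), Isg20 (1.27), Bst2 (1.18), Ifi27l2a (1.29) and Sp100 (1.05), with log2 fold changes in parentheses and adjusted p between 0.000232 and 0.0447.

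**Figure D2:**
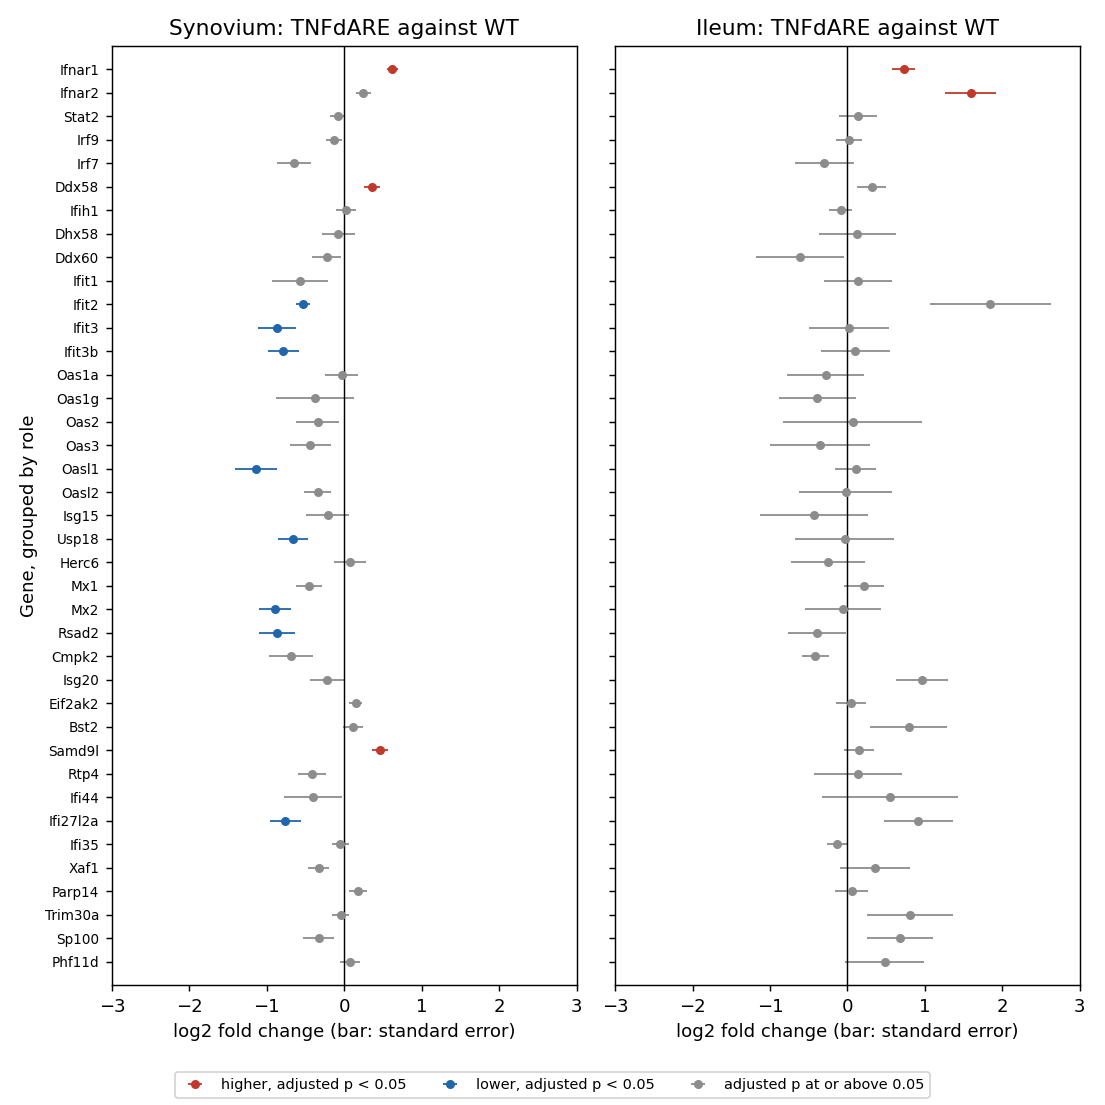
Log2 fold change of TNFdARE over WT for each of the 39 genes (rows, grouped by role) in synovium (left) and ileum (right), from edgeR, with bars of 1 standard error. Red and blue points passed an adjusted p of 0.05. The bars are narrower in the synovium, where the median standard error was 0.19, than in the ileum, where it was 0.44.

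The receptor chains were the members that rose in the ileum, and Ifnar1 rose in both tissues. Ifnar1, the chain that recruits Tyk2, had 150.4, 134 and 141 CPM in TNFdARE synovium, against 91.7, 98.2 and 92.9 CPM in WT synovium. The groups did not overlap, the log2 fold change being 0.62 ± 0.07 (SE, n = 3 each) with an adjusted p of 0.00139 by edgeR's quasi-likelihood test with Benjamini-Hochberg adjustment, and the call held in all 9 other settings and without each of the 6 libraries. In the ileum Ifnar1 had 140.5, 94.1 and 114 CPM in TNFdARE mice, against 67.0, 74.8 and 69.4 CPM in WT mice. The lowest TNFdARE library stood clear of the highest WT library there too, and the log2 fold change was 0.73 ± 0.15 (adjusted p = 0.0459). The 2 effects differed by -0.13 ± 0.17 on the log2 scale, synovium minus ileum (adjusted p = 0.664).

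Ifnar2, the chain that binds Jak1, had 57.2, 49.7 and 51.1 CPM in TNFdARE synovium, against 40.6, 47.0 and 48.3 CPM in WT synovium. The groups did not overlap but lay close, and the log2 fold change of 0.25 ± 0.10 did not pass (adjusted p = 0.103). In the ileum Ifnar2 had 49.7, 19.9 and 38.6 CPM in TNFdARE mice, against 12.8, 11.7 and 11.5 CPM in WT mice. All TNFdARE libraries were above the WT libraries, which lay close together, and the log2 fold change was 1.59 ± 0.33 (adjusted p = 0.0482). The effect on Ifnar2 was smaller in the synovium than in the ileum by 1.37 on the log2 scale (interaction -1.37 ± 0.35, adjusted p = 0.0334). Without any 1 of TNFdARE ileum replicates 1 and 3 and WT ileum replicates 1, 2 and 3, both ileum calls were lost, at an adjusted p of 0.0511 to 0.178 for Ifnar1 and 0.0684 to 0.178 for Ifnar2. With replicate number as a block, Ifnar1 was no longer called in the ileum (adjusted p = 0.0589) and Ifnar2 was (adjusted p = 0.0440). The reads of Ifnar2 overlap in part with the readthrough gene Gm21970, which shares 6.31% of its 100-base windows.

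**Figure D3:**
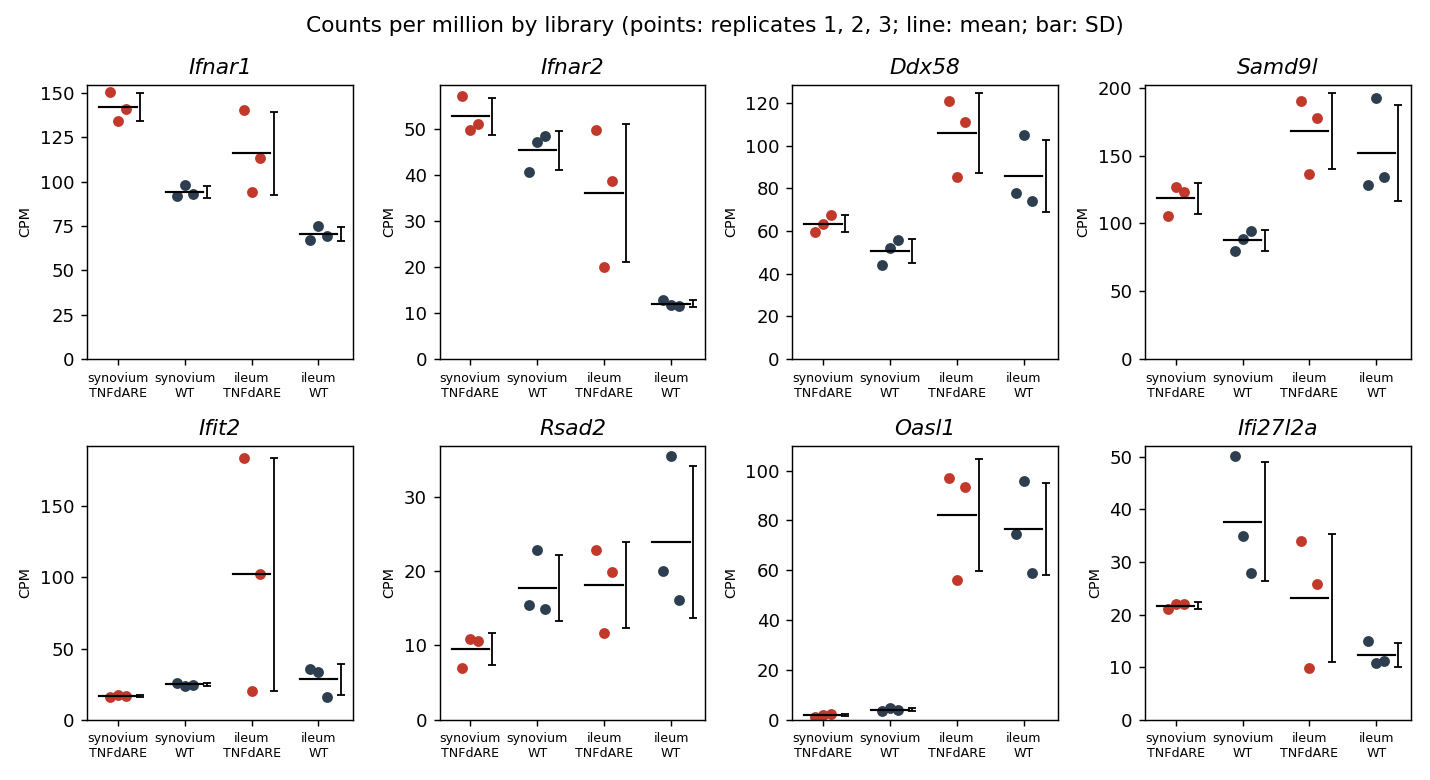
CPM of 8 members in each library of the 4 groups, left to right TNFdARE and WT synovium, then TNFdARE and WT ileum; points are replicates 1, 2 and 3, lines are means and bars are 1 SD. TNFdARE lies above WT in Ifnar1 in both tissues (94.1 to 140.5 over 67.0 to 74.8 CPM in the ileum), and TNFdARE synovium lies below WT synovium in Ifit2, Rsad2, Oasl1 and Ifi27l2a.

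The transcription factors of the pathway, Stat2, Irf9 and Irf7, passed in neither tissue. Irf7, the factor that amplifies interferon production, had 13.5, 24.0 and 23.6 CPM in TNFdARE synovium, against 31.1, 34.4 and 32.5 CPM in WT synovium. All TNFdARE libraries were below WT, replicate 1 by the most, and the log2 fold change was -0.65 ± 0.22 (adjusted p = 0.0756, and 0.0191 with replicate number as a block). In the ileum Irf7 had 173, 101 and 215 CPM in TNFdARE mice, against 150.1, 297 and 156 CPM in WT mice, and these ranges overlapped widely. Stat2 and Irf9, which act together in the nucleus, had log2 fold changes of -0.08 ± 0.09 and -0.13 ± 0.11 in the synovium and 0.14 ± 0.25 and 0.02 ± 0.17 in the ileum.

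Of the 4 helicase genes that sense or help to sense RNA, 1 rose in the synovium. Ddx58, which encodes RIG-I, a sensor of short RNA with a free triphosphate end, had 59.4, 63.2 and 67.3 CPM in TNFdARE synovium, against 44.2, 51.8 and 55.6 CPM in WT synovium. The groups lay next to each other without overlap, and the log2 fold change was 0.35 ± 0.10 (adjusted p = 0.0463). The call held without WT synovium replicate 3 and was lost without each of the other 5 synovium libraries (adjusted p 0.0621 to 0.143). Ifih1, which encodes MDA5, a sensor of long double-stranded RNA, had a log2 fold change of 0.03 ± 0.13 in the synovium and -0.09 ± 0.15 in the ileum. Dhx58, which encodes the regulator LGP2, and Ddx60 gave -0.08 ± 0.21 and -0.23 ± 0.18 in the synovium and 0.13 ± 0.50 and -0.61 ± 0.56 in the ileum.

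The IFIT family, whose proteins bind foreign RNA and hold back its translation, fell in 3 of its 4 members in the synovium. Ifit2 had 15.9, 17.6 and 17.0 CPM in TNFdARE synovium, against 25.9, 23.9 and 24.7 CPM in WT synovium. Replicates lay close together in both groups, which were well apart, and the log2 fold change was -0.53 ± 0.09 (adjusted p = 0.00718), a call that held without each of the 6 libraries. Ifit3 had 5.64, 6.00 and 10.6 CPM in TNFdARE synovium, against 14.1, 12.7 and 14.6 CPM in WT synovium, with TNFdARE replicate 3 the nearest to WT (-0.87 ± 0.25, adjusted p = 0.0423). Its near copy Ifit3b had 2.28, 2.54 and 2.20 CPM in TNFdARE synovium, against 4.65, 3.91 and 3.85 CPM in WT synovium, again without overlap (-0.79 ± 0.20, adjusted p = 0.0300). Ifit1 had 3.90, 4.67 and 7.94 CPM in TNFdARE synovium, against 6.79, 12.2 and 6.20 CPM in WT synovium, and these overlapped (-0.58 ± 0.36, adjusted p = 0.288).

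In the ileum 0 of the 4 IFIT genes passed. Ifit2 ranged widely, with 184, 20.1 and 102 CPM in TNFdARE ileum, against 35.7, 33.9 and 15.9 CPM in WT ileum. TNFdARE replicates 1 and 3 were above every WT library and replicate 2 was below 2 of them, and the log2 fold change of 1.85 ± 0.78 did not pass (adjusted p = 0.176). Without TNFdARE ileum replicate 2 it was 2.34 (adjusted p = 0.0372). Ifit1, Ifit3 and Ifit3b had log2 fold changes of 0.14 ± 0.44, 0.02 ± 0.52 and 0.10 ± 0.44 with all libraries.

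The 2'-5' oligoadenylate synthetases, which activate the RNA-degrading enzyme RNase L, and their relatives were 6 members, of which 1 fell in the synovium and 0 changed in the ileum. Oasl1, an OAS relative that in mice is known to hold back translation of Irf7 mRNA, had 1.26, 1.96 and 2.20 CPM in TNFdARE synovium, against 3.67, 4.62 and 3.92 CPM in WT synovium. Every TNFdARE library was well below WT, and the log2 fold change of -1.14 ± 0.27 (adjusted p = 0.0237) was the most negative of the 39 genes in the synovium. Oas1a, Oas1g, Oas2, Oas3 and Oasl2 had log2 fold changes between -0.44 and -0.03 there, and 0 of these 5 passed. In the ileum Oas2 spanned 30.8, 4.86 and 36.5 CPM in TNFdARE mice, against 10.5, 48.0 and 10.7 CPM in WT mice, so that TNFdARE replicate 2 lay below every WT library and WT replicate 2 above every TNFdARE library.

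Among the genes around ISG15, a ubiquitin-like protein that is joined to other proteins, Usp18 fell in the synovium. Usp18, the protease that removes ISG15 and also damps signalling at Ifnar2, had 3.96, 4.84 and 5.91 CPM in TNFdARE synovium, against 7.56, 8.66 and 7.57 CPM in WT synovium. The groups did not overlap (-0.66 ± 0.19, adjusted p = 0.0450). Isg15 itself had 3.60, 4.04 and 7.07 CPM in TNFdARE synovium, against 5.89, 6.32 and 5.22 CPM in WT synovium, with TNFdARE replicate 3 above all WT libraries (-0.21 ± 0.28, adjusted p = 0.621). Herc6, the ligase for ISG15 in mice, had a log2 fold change of 0.08 ± 0.20. In the ileum the 3 genes had log2 fold changes between -0.44 and -0.04, with 0 of 3 called.

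The 8 other antiviral effectors moved in both directions in the synovium, where 2 fell and 1 rose. Mx2, which the annotation lists as a polymorphic pseudogene of laboratory mice, had 1.92, 2.31 and 1.91 CPM in TNFdARE synovium, against 3.67, 3.97 and 3.98 CPM in WT synovium (-0.89 ± 0.21, adjusted p = 0.0216). Rsad2, which encodes viperin, an enzyme that makes a chain-terminating nucleotide, had 7.02, 10.9 and 10.6 CPM in TNFdARE synovium, against 15.5, 22.9 and 14.9 CPM in WT synovium (-0.87 ± 0.23, adjusted p = 0.0359). Both genes were lower in every TNFdARE library than in any WT library. Samd9l, a restriction factor of poxviruses, rose instead, with 105, 127 and 123 CPM in TNFdARE synovium, against 79.6, 88.4 and 94.7 CPM in WT synovium (0.47 ± 0.10, adjusted p = 0.0176).

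Cmpk2, a nucleotide kinase that lies beside Rsad2 in the genome, had 7.74, 14.4 and 10.96 CPM in TNFdARE synovium, against 14.0, 23.9 and 16.4 CPM in WT synovium. Replicate 1 was the lowest and replicate 2 the highest in both genotypes, whose ranges just overlapped. The log2 fold change was -0.68 ± 0.28 (adjusted p = 0.127), and with replicate number as a block the gene passed (adjusted p = 0.00586). Mx1 had a log2 fold change of -0.45 ± 0.17 in the synovium (adjusted p = 0.0918), without overlap of the groups. Eif2ak2, which encodes the RNA-activated kinase PKR, the exonuclease gene Isg20 and Bst2, which encodes tetherin, had 0.15 ± 0.09, -0.22 ± 0.22 and 0.11 ± 0.13. In the ileum Isg20 had 11.1, 4.37 and 8.93 CPM in TNFdARE mice, against 4.16, 3.80 and 4.58 CPM in WT mice, and TNFdARE replicate 2 lay within the WT range (0.96 ± 0.34, adjusted p = 0.118). All 8 effectors there had log2 fold changes between -0.41 and 0.96, with 0 called.

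Of the remaining 9 members, 1 changed. Ifi27l2a, a small interferon-induced protein, had 21.0, 22.1 and 22.1 CPM in TNFdARE synovium, against 50.1, 35.0 and 27.9 CPM in WT synovium. The TNFdARE libraries were nearly equal and lay below a wide WT range (-0.76 ± 0.20, adjusted p = 0.0355). In the ileum it pointed the other way, with 33.9, 9.93 and 25.8 CPM in TNFdARE mice, against 14.98, 10.8 and 11.3 CPM in WT mice, but TNFdARE replicate 2 was the lowest of the 6 libraries (0.92 ± 0.44, adjusted p = 0.219). The difference of the 2 effects, synovium minus ileum, was -1.71 ± 0.52 (adjusted p = 0.0560), and -1.54 with an adjusted p of 0.0433 with replicate number as a block. Rtp4, Ifi44, Ifi35, Xaf1, Parp14, Trim30a, Sp100 and Phf11d had log2 fold changes between -0.42 and 0.18 in the synovium and between -0.13 and 0.81 in the ileum. With replicate number as a block, Rtp4 (adjusted p = 0.0339) and Sp100 (adjusted p = 0.0288) passed as lower there too, beside Irf7 and Cmpk2, which made 15 members called, 3 higher and 12 lower, while 15.6% of all genes were called higher and 15.4% lower in that fit.

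Leaving out single libraries showed which of the synovium calls stayed under the threshold with fewer libraries. These fits also called fewer of all genes, 7.98% to 10.5% higher and 5.43% to 8.02% lower, against 13.1% and 10.7% with all 6 libraries. A lost call thus need not rest on particular replicates. Ifnar1 and Ifit2 were called without each of the 6 libraries, and Samd9l without each except TNFdARE replicate 3 (adjusted p = 0.0636). Oasl1 was lost without TNFdARE replicate 2 and without WT replicates 2 and 3 (adjusted p 0.0509 to 0.0685), and Mx2 without TNFdARE replicates 1 and 3 and WT replicates 2 and 3 (0.0596 to 0.0760). Ifi27l2a was lost without TNFdARE replicates 1, 2 and 3 and WT replicate 2 (0.0663 to 0.101). Ifit3 and Usp18 held only without TNFdARE replicate 3, with an adjusted p up to 0.121 and 0.118 otherwise. Ifit3b and Rsad2 were lost without any 1 of the 6 libraries (0.0554 to 0.0964 and 0.0534 to 0.0836). In a model that shared 1 estimate of spread over all 12 libraries, 2 of the 11 were called, Ifnar1 and Oasl1.

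The interaction tested whether TNFdARE acted differently in the 2 tissues. It called 1 of the 39 members, Ifnar2, as lower in the synovium effect, while 6.8% of 16964 genes were called lower and 5.28% higher (8.13% and 3.69% with library size as the only scaling). The median interaction over the members was -0.43, synovium effect minus ileum effect, against -0.08 over all genes, and 29 of 39 were negative. Without TNFdARE ileum replicate 2, 10 members were called, all lower in the synovium effect, while 9.79% of 17291 genes were called lower and 10.5% higher. They were Ifnar2, Ifit2, Ifit3b, Oasl1, Mx1, Mx2, Isg20, Bst2, Ifi27l2a and Sp100. Their interactions in that fit lay between -2.79 for Ifit2 and -0.85 for Mx1, on the log2 scale. Without any 1 of the other 11 libraries, the call of Ifnar2 was held 2 times and was lost 9 times, at an adjusted p of 0.0528 to 0.0778.

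Apart from genotype, the members called between the tissues were mostly lower in synovium than in ileum. In TNFdARE mice 26 of 39 were lower and 0 were higher in synovium than in ileum, while 35.0% of all genes were lower and 31.6% higher. At an unadjusted p under 0.05, 2 members were higher in TNFdARE synovium than in TNFdARE ileum, Ifnar1 (adjusted p = 0.0505) and Ifnar2 (adjusted p = 0.0711). Of 9 other settings, 7 called Ifnar1 higher and 6 called Ifnar2 higher. The replicate block was among them (adjusted p = 0.0184 and 0.0337). Each of the 2 was called in 2 of the 6 fits that left out a library. In WT mice 19 of 39 were lower in synovium and 5 were higher, against 36.0% and 38.2% of all genes. Most genes tested differed between the tissues, which makes the scaling between them less certain. With library size as the only scaling, 24 members were lower and 1 higher in TNFdARE mice, against 31.1% and 34.0% of all genes. In WT mice 18 were then lower and 5 higher, against 30.9% and 42.6%. The median log2 difference of the members was -1.17 in TNFdARE mice and -0.78 in WT mice, against -0.05 and 0.03 over all genes. The 5 genes that were higher in WT synovium than in WT ileum were Ifnar1, Ifnar2, Isg20, Ifi27l2a and Sp100. The call of Sp100 was lost without WT ileum replicates 1 and 3 and WT synovium replicates 2 and 3 (adjusted p 0.0586 to 0.0791). With replicate number as a block, Sp100 was not called either (adjusted p = 0.0573). The other 4 held without each of the 6 libraries.

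**Figure D4:**
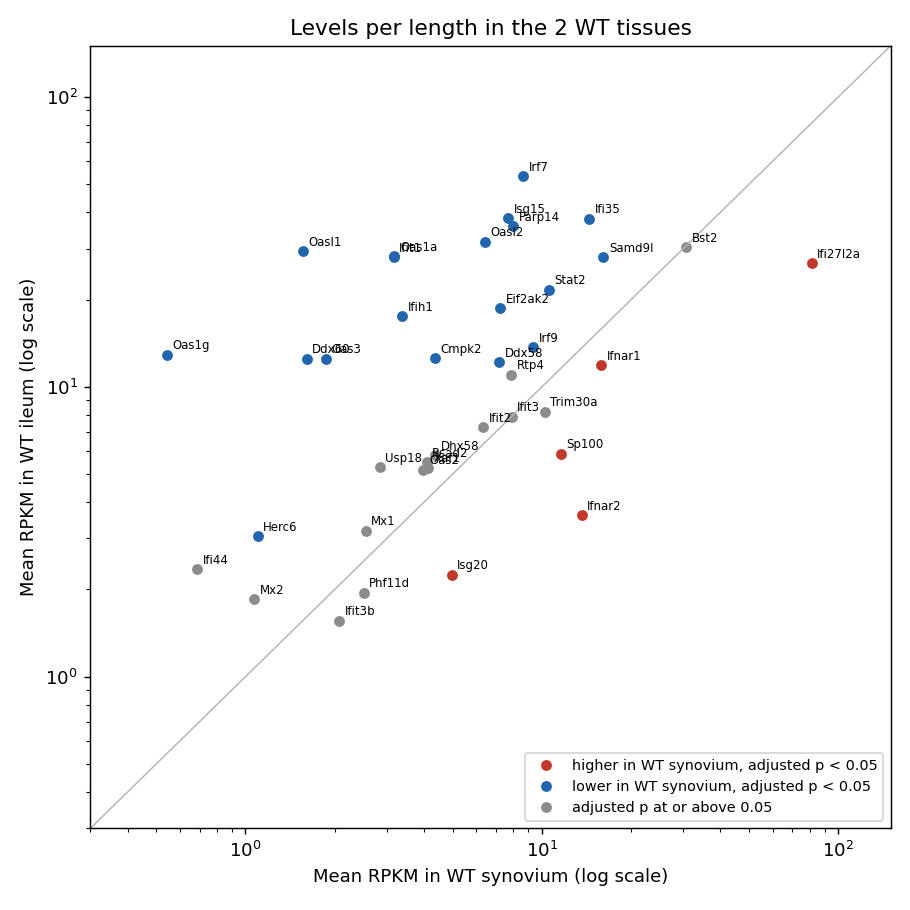
Mean level of each of the 39 genes in WT synovium (x axis) and WT ileum (y axis), in RPKM on log scales, n = 3 libraries each; the line marks equal levels. Most points lie above the line, with Oas1g and Oasl1 the farthest from it, and Ifnar2, Isg20 and Ifi27l2a lie below it.

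Of the 6 OAS genes, 5 were lower in synovium in both genotypes and Oas2 did not pass (-0.81 ± 0.72, adjusted p = 0.338 in TNFdARE mice, and -0.38 ± 0.71, adjusted p = 0.648 in WT mice). Oasl1 averaged 0.693 ± 0.188 RPKM in TNFdARE synovium, against 31.5 ± 8.66 RPKM in TNFdARE ileum, and 1.56 ± 0.189 RPKM in WT synovium, against 29.4 ± 7.11 RPKM in WT ileum (SD, n = 3 each). The log2 difference, synovium minus ileum, was -5.50 ± 0.30 in TNFdARE mice (adjusted p = 4.86e-08) and -4.23 ± 0.28 in WT mice (adjusted p = 1.52e-07). Oas1g averaged 0.543 ± 0.229 RPKM in WT synovium, against 12.9 ± 6.16 RPKM in WT ileum (-4.57 ± 0.57, adjusted p = 2.98e-05). Ifih1 (-2.37 ± 0.15), Irf7 (-2.62 ± 0.35), Ddx60 (-2.96 ± 0.48), Ifit1 (-3.15 ± 0.46) and Oas1a (-3.15 ± 0.44) were also lower in WT synovium. Within families the gap was uneven: Ifit2 and Ifit3 had 6.33 ± 0.259 and 7.92 ± 0.574 RPKM in WT synovium, against 7.26 ± 2.79 and 7.89 ± 4.14 RPKM in WT ileum, and neither passed.

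Per length, the members ranged over more than 1 order of magnitude within each tissue. Ifi27l2a averaged 46.9 ± 1.36 RPKM in TNFdARE synovium and stood first there, ahead of Bst2 at 32.4 ± 4.78 RPKM. In WT synovium Ifi27l2a was also first at 81.4 ± 24.5 RPKM, followed by Bst2 at 30.6 ± 2.37, Samd9l at 16.1 ± 1.40 and Ifnar1 at 15.9 ± 0.582 RPKM, and Oas1g was last. In TNFdARE ileum Bst2 (52.3 ± 27.9 RPKM) and Ifi27l2a (50.2 ± 26.4 RPKM) led, with spreads that covered both. In WT ileum Irf7 was the highest at 53.3 ± 22.0 RPKM, followed by Isg15 at 38.2 ± 28.6, Ifi35 at 38.1 ± 4.96 and Parp14 at 35.9 ± 2.99 RPKM, which did not differ beyond their spread, and Ifit3b was the lowest at 1.56 ± 0.499 RPKM.

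The interferons themselves were barely detected. The genes of interferon beta and of 14 interferon alphas summed to 0 counts in each of the 6 ileum libraries, which allows up to 3 counts, or 0.191 to 0.210 CPM before TMM, per library. In the synovium they summed to 1 count in TNFdARE replicate 1 and 1 count in WT replicate 1 and to 0 in the other 4 libraries. Of the other type I interferon genes counted, Ifne and Ifnk had 0 counts in all 12 libraries. Ifnz had 3 counts in WT ileum replicate 1, 1 count in WT synovium replicate 2 and 0 in the remaining libraries. Ifnl2 and Ifnl3, the lambda interferons, had 0 counts in all 12 libraries. Ifng, the type II interferon, had 0, 1 and 0 counts in TNFdARE synovium and 0, 0 and 1 in WT synovium, against 32, 5 and 17 counts in TNFdARE ileum and 7, 7 and 3 counts in WT ileum, and it did not pass the filter in either tissue. These limits cover only the error of counting reads, which carried no molecular identifiers.

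Genes elsewhere in the pathway were read from lists chosen with earlier results of these data known. Of the 4 tested genes among the other ligands and receptors, 3 rose in the synovium, among them Il10rb, a chain of the interferon lambda receptor (0.77 ± 0.09, adjusted p = 0.00194), and Ifngr1, the ligand-binding chain for interferon gamma (0.52 ± 0.06, adjusted p = 0.00238). In the ileum 0 of these 4 passed, with Ifngr1 at 0.12 ± 0.07. Among 18 genes of nucleic acid sensing and interferon induction, 10 rose and 0 fell in the synovium, where 13.1% and 10.7% of all genes did, led by Tmem173, which encodes the DNA-pathway adaptor STING (1.65 ± 0.11, adjusted p = 0.000288), and Irf5 (1.07 ± 0.10, adjusted p = 0.00093). In the ileum 4 of the 18 rose and 1 fell, where 4.12% and 1.57% of all genes did. Irf5 was at 2.15 ± 0.41 there (adjusted p = 0.0459) and Mavs, the adaptor of RIG-I and MDA5, at -0.45 ± 0.09 (adjusted p = 0.0462). Among 11 JAK-STAT genes, 6 rose and 0 fell in the synovium, with Jak2 at 0.78 ± 0.07 (adjusted p = 0.000868) and the phosphatase Ptpn2 at 0.58 ± 0.11 (adjusted p = 0.0112), and 0 were called in the ileum, where Irf1 had 0.35 ± 0.26.

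Among interferon stimulated genes outside the 39, the calls in the synovium were mostly upward. Of 54 tested, 10 rose and 1 fell, against 13.1% and 10.7% of all genes, and 43 did not pass. The calls with the smallest adjusted p were Ifitm2, a membrane protein that hinders virus entry (0.59 ± 0.08, adjusted p = 0.00403), and Slfn5 (-0.47 ± 0.07, adjusted p = 0.00429). Of 53 tested in the ileum, 1 rose, Ifitm1 (2.34 ± 0.29, adjusted p = 0.0389), and 0 fell, against 4.12% and 1.57% of all genes. Of 24 targets known for interferon gamma, 11 rose and 5 fell in the synovium, with Gbp5 at 1.61 ± 0.11 (adjusted p = 0.000416) and the class II gene H2-Ab1 at 1.33 ± 0.11 (adjusted p = 0.000598). In the ileum 0 of 27 passed although their median log2 fold change was 1.21, and their summed level was 10970, 2820 and 7716 CPM in TNFdARE replicates 1, 2 and 3, with WT between 1989 and 4078 CPM.

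Markers of cell types moved between the genotypes as well. Over all genes tested in the synovium, 13.1% rose and 10.7% fell. In the synovium macrophage markers rose in 5 of 6, among them Csf1r (1.14 ± 0.08) and Adgre1 (1.75 ± 0.13), and summed to 1811 to 2248 CPM in TNFdARE mice, against 843 to 921 CPM in WT mice. Skeletal muscle markers summed to 1406 to 5657 CPM in TNFdARE synovium, against 8623 to 15808 CPM in WT synovium, with Myh4 called lower among 7 genes. Synovial fibroblast markers were split, with 3 of 6 higher, such as Pdpn (2.03 ± 0.13), and 1 lower, Prg4 (-1.87 ± 0.13), and summed to 9494 to 11130 CPM in TNFdARE mice, against 18818 to 21082 CPM in WT mice. Endothelial markers fell in 3 of 4, with Tek at -0.52 ± 0.07, and summed to 432 to 518 CPM in TNFdARE synovium, against 568 to 609.5 CPM in WT synovium.

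Plasmacytoid dendritic cells, a known source of interferon alpha, have 8 markers on the list, of which 7 were tested and 2 fell in the synovium, Runx2 and Pacsin1, which bone and nerve cells also express. These markers summed to 315 to 343 CPM in TNFdARE synovium, against 395 to 458 CPM in WT synovium. NK cell markers fell in 2 of 4, Klrb1c (-1.35 ± 0.30) and Klre1 (-1.25 ± 0.31), and summed to 2.76 to 5.82 CPM in TNFdARE mice, against 8.73 to 10.9 CPM in WT mice. Of 5 T cell markers, Cd4 rose (0.86 ± 0.12) and Cd8a fell (-1.54 ± 0.29), 0 of 4 B cell and 0 of 6 neutrophil markers passed, and Cdh1 rose among 3 epithelial markers tested. The part of these cells in the lower interferon genes of the synovium was not tested.

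In the ileum 4 of 4 tested neutrophil markers rose, with Csf3r at 5.07 ± 0.64, while 4.12% of all genes tested there rose and 1.57% fell. The neutrophil markers summed to 75.03 to 437 CPM in TNFdARE mice, against 3.94 to 7.21 CPM in WT mice. Macrophage markers rose in 3 of 6, with Csf1r at 2.57 ± 0.39, and summed to 653.8 to 1580 CPM, against 291 to 335 CPM in WT mice. Tcf4 rose among 7 plasmacytoid dendritic cell markers, Pecam1 among 4 endothelial markers and Dcn among 5 synovial fibroblast markers, and Acta1 fell among 4 skeletal muscle markers. Epithelial markers passed in 0 of 7, T cell markers in 0 of 5, B cell markers in 0 of 4 and the 1 tested NK cell marker, Ncr1, did not pass. The part of these cells in the ileum levels was not tested.

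Finally, the start regions were set beside the calls. Of the 8 members that fell in the synovium, 5 had a RefSeq window and 3 of these, Ifit3, Ifit3b and Rsad2, held the response element core printed above. Among all 31 members with a window, 15 held it. The stretches of Ifit3 and Ifit3b are the same letters, so they are not 2 separate cases. Of the 3 that rose, Ddx58 held the core, 3 bases after the start, and Ifnar1 and Samd9l did not. Oasl1, the gene with the widest drop in the synovium, and Ifit2 had no match to the core in these 300 bases. The window of Ifit2 held the GAS letters.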

How the data were processed

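Poly-A RNA of 12 libraries was prepared with the TruSeq Stranded mRNA kit and read as single reads, per the labels' protocols. Reads were handled with cutadapt 1.15 and Bowtie2 2.3.3.1 against GRCm38, per the submitters' processing notes; the sources used here give no counting tool. Raw counts per Ensembl gene, as the authors deposited them, were used for all comparisons. The authors also deposited FPKM values, adjusted further in a way the sources used here do not state: 0 values of them were 0, although 5756 belonged to a count of 0. FPKM served as an alternative, on log2(FPKM + 1) and log2(FPKM + 0.1).

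Each tissue was tested on its 6 libraries in R 4.3.3 with edgeR 4.0.16 (filterByExpr, TMM, robust quasi-likelihood F test, two-sided, Benjamini-Hochberg over all genes tested, threshold 0.05). The interaction and the tissue comparisons came from 1 model of 4 groups over 12 libraries. The 5 comparisons share libraries. Every adjusted p is edgeR's unless another tool is named. Standard errors are the log2 fold change over the root of F. limma 3.58.1 and DESeq2 1.42.0 were alternatives, as were other scalings, no filter, a replicate block, all 12 libraries and leaving out each library. The fits were tested on simulated data. Symbols (98.7% of identifiers matched), exon lengths and shared 100-base windows came from GENCODE vM21 (GRCm38).

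Same-numbered TNFdARE and WT libraries deviated together (r = 0.232, 0.257 and 0.157 over 10469 genes in the ileum, 0.611, 0.359 and 0.231 over 10776 genes in the synovium). TNFdARE replicate 3 did so about as much with WT replicate 1 in the ileum (r = 0.156). In the synovium it did so more with WT replicate 2 (r = 0.286). The numbers may thus pair the libraries within a tissue, but these values do not settle it. The tests reported carry no block. The blocked value is given where it changes the call of a member. The labels do not say what a number stands for. Replicates of a group were no repeats of 1 library: their counts spread 11.2 to 92.9 times as widely as the Poisson variance.

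The members and the lists were chosen with earlier results of these data known. Every member is accounted for. For each other list the rule was to name the 2 called genes with the smallest adjusted p in a tissue, or the most abundant where 0 were called. Not every list is given with all the genes of this rule, mainly among the cell type markers. Some further genes of those lists are named where a count was small. One further gene is left out of those lists and is not reported here.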

Additional observations from a re-analysis of the deposited data

Results flagged for a closer look

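Ifnar2 was called as differing between the tissues in its response to TNFdARE, by a test of the difference itself. It was the 1 member of 39 called, while 6.8% of all genes were called lower and 5.28% higher. The call held in 4 of 8 other settings and was lost in 9 of the 12 fits that left out a library. The interaction, synovium effect minus ileum effect, was -1.37 on the log2 scale (adjusted p = 0.0334 by edgeR's quasi-likelihood test), with log2 fold changes of 0.25 in the synovium and 1.59 in the ileum. WT levels differed too, with 45.3 CPM on average in WT synovium, against 12.02 CPM in WT ileum, and the TNFdARE levels were closer, with 52.7 CPM in synovium, against 36.1 CPM in ileum.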

How the results depend on the processing

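The 2 members called in the ileum became 1 without a filter on low counts and 1 with the replicate block, and 0 with limma-voom and with either FPKM setting, which called 0 of all genes there. Leaving out single libraries gave 0 to 9, and without any 1 of the WT ileum libraries 0 of all genes were called. The 11 members called in the synovium became 6 on log2(FPKM + 1), with 1 higher and 5 lower beside 10.6% and 8.61% of all genes, and 2 in the model of all 12 libraries, with 1 higher and 1 lower beside 10.2% and 11.4%. Without single libraries 3 to 6 were called, 1 to 3 higher and 1 to 5 lower, beside 7.98% to 10.5% and 5.43% to 8.02% of all genes; the members' share of falling genes was above that of all genes in 2 of these 6 fits and in 8 of the 9 other settings. The replicate block, which pairs equal numbers within a tissue, gave 15 there and 2 in the interaction. The 1 member called in the interaction became 2 with library size as the only scaling, 4 with DESeq2, and 0 without a filter, with limma-voom and with either FPKM setting; single libraries left out gave 0 to 10. In TNFdARE mice 26 members differed between tissues (23 to 29 in 9 other settings, 21 to 34 without single libraries). Of these, 0 to 2 were higher in synovium. In WT mice 24 members differed (23 to 26, and 23 to 25). Equal numbers across tissues gave r = -0.116, -0.022 and 0.161 in TNFdARE mice and -0.006, 0.058 and 0.037 in WT mice. The block, which gave 28 in TNFdARE mice and 23 in WT mice between the tissues, is thus only an alternative. No called member changed sign under any setting run. The cause of these changes was not tested. With 3 libraries a group and the wide spread between ileum replicates, many changes of the size seen in the synovium may not be detectable in the ileum.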
